A study of Sus scrofa with 6 samples.

Results

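The genes described here encode structural proteins of the Z-disc and of the thin filament of skeletal muscle, measured in the longissimus dorsi muscle (LDM), a glycolytic muscle of the back, and the psoas major muscle (PMM), an oxidative muscle of the loin. All groups were muscle of female Landrace pigs slaughtered at 210 days of age, the labels name no treatment or genetic change, and each muscle was measured on 3 one-colour Agilent arrays. The labels speak of 3 pigs and number the arrays of each muscle from 1 to 3, but no label ties a number to a pig. The RNA extraction text of the labels speaks of adipose tissue, while the tissue labels name the muscles.

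The members were chosen by gene name from 9 genes, which are ACTA1, ACTN2, ACTN3, MYOZ1, MYOZ2, MYOZ3, TCAP, LDB3 and DES. The text of the array files alone found 2 of the 43603 probes, one of MYOZ1 and one described as an alpha-actinin-2-associated LIM protein, which is PDLIM3 and not one of the 9 genes. Naming probes through RefSeq accessions and gene numbers (Sscrofa11.1 table, names only) gave 11 probes of 7 of the genes, so that 12 probes of 8 genes, of 3536 named genes on the array, were followed with PDLIM3 included. ACTN3 and TCAP matched no probe and are not analysed here. All 12 probes were well above background on all 6 arrays and all 12 passed the filter on detection.

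The Z-disc is the plate at which the thin filaments of neighbouring sarcomeres meet. Alpha-actinin cross-links the actin filaments there, and a set of smaller proteins binds to alpha-actinin and ties the disc to signalling enzymes, to the intermediate filaments and to the cell membrane. Myozenins (also called calsarcins) bind alpha-actinin and the phosphatase calcineurin, and MYOZ2 is known as the form of slow skeletal fibres and heart, MYOZ1 and MYOZ3 as forms of fast fibres. Slow fibres are the more frequent in oxidative muscle, and Z-discs differ in thickness between fibre types.

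The probes are 60 bases long, and the sequences below show which stretch of a transcript each signal comes from. They are shown because 3 genes have more than 1 probe, and the probes of 1 gene need not be independent. At most 30 bases are shown of probes near a transcript's end, and AATAAA, the motif of a polyadenylation signal, is in capitals where a probe holds it. MYOZ1, MYOZ2 and the first MYOZ3 probe stand for the myozenins, and ACTN2 for the alpha-actinin.
MYOZ1 (A_72_P035796, bases 31 to 60): tctgccaccggtaacagctAATAAAtttca
MYOZ2 (A_72_P232882, bases 1 to 30): aggccaagccatgtacacacttcattagca
MYOZ3 (A_72_P179376, bases 1 to 30): ctcactagccacctgtttacctgtgactca
ACTN2 (A_72_P273729, bases 1 to 30): ttgcttatccaaagattagctacgtttaag
LDB3 (A_72_P119011, bases 24 to 53): tcgttttagcaaAATAAAaccccaaaacag

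AATAAA was present as written in 4 of the 12 probes, namely 2 of DES, 1 of LDB3 and 1 of MYOZ1, against 12.1% of all 43603 probes, and either strand held it in the same 4 against 16.3% of all. A stop codon stood in every reading frame of 5 of the 12 probes, those of LDB3, MYOZ2 and MYOZ3. The DES probes came from different places. Probes A_72_P177466 and A_72_P209552 shared 55 bases with 2 mismatches, C21T and A48C, counted from 1 at the first shared base with the first probe's base named first. They are shown with the mismatches in capitals, over shared bases 20 to 49.
DES (A_72_P177466): tCtggacagaaacaataaaaagataagcAc
DES (A_72_P209552): tTtggacagaaacaataaaaagataagcCc

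The third DES probe starts far upstream, at base 739 of its transcript, and gave the DES value least like the others. The PDLIM3 probe starts at base 1068 and was the member with a lower value in PMM in every pair. Each has a low start position and 2 reading frames without a stop codon, and probes of that kind are shown whole.
DES (A_72_P350098, bases 1 to 60): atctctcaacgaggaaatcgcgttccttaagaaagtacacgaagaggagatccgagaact
PDLIM3 (A_72_P223382, bases 1 to 60): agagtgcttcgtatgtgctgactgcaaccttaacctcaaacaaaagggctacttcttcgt

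The 2 MYOZ3 probes shared 54 bases with 0 mismatches, so they count as 1 measurement of MYOZ3.

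Between 58.5% and 72.4% of the spots of an array were well above background. With 3 arrays a muscle, the small number of arrays limits how precise these values are. The labelled tissue carried its markers, since all 7 slow fibre and all 10 fast fibre genes with a probe were well above background on all 6 arrays. Adipocyte markers had a summed level of 77.5 to 237 in LDM and 82.2 to 256 in PMM in units of the array's 75th percentile, and 5 of the 6 on the array, ADIPOQ and LEP among them, were well above background on all 6 arrays, PLIN1 on 5. That sum is carried by FABP4. Of the 6 genes 4 were lower in PMM, with ADIPOQ, PLIN1 and CIDEC at log2 fold changes of -0.63, -1.03 and -0.86 and lower in 3 of 3 pairs, while LPL was at 1.12 with no overlap, and the median was -0.37. Fibroblast markers (4 genes) had summed levels of 97.6 to 220 in LDM and 71.0 to 152 in PMM, and all 4 were lower in PMM in 3 of 3 pairs. Their part in the results was not tested. The arrays measured bulk tissue, in which fewer cells of a type and less RNA per cell cannot be told apart.

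Signals are given as log2 of the processed intensity relative to the 75th percentile of its array, and a log2 fold change is PMM over LDM. Levels of different probes are not compared.

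MYOZ2, the myozenin of slow fibres, had the largest difference among the members with all 6 arrays in the main scaling. PDLIM3 (-0.89) and ACTN2 (0.81) had larger ones than MYOZ2 (0.77) with the slide as a block, estimates that rest on replicates 2 and 3 alone. PDLIM3 also did under normexp background correction (-0.95 against 0.86), and ACTN2 or PDLIM3 did when some single arrays were left out. The normalized log2 signal of MYOZ2 was 6.97, 7.19 and 6.74 in LDM and 8.48, 7.77 and 7.71 in PMM, for replicates 1, 2 and 3. Every PMM array lay above every LDM array, which held for 1 of the 12 probes against 3.07% of all probes. No overlap in either direction was found for the same 1 member and for 5.94% of all probes. The mean was 6.97 ± 0.23 in LDM and 7.99 ± 0.43 in PMM (SD, n = 3), and the log2 fold change of 1.02 had an SE of 0.33, a 2.03-fold higher level in PMM. The difference did not pass the test over all 25835 probes (limma, adjusted p = 0.999982, unadjusted p = 0.014).

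MYOZ1 and MYOZ3, the fast-fibre myozenins, had smaller differences. The MYOZ1 signal was 9.96, 9.41 and 9.77 in LDM and 10.09, 9.67 and 9.62 in PMM, and the muscles overlapped. Its log2 fold change was 0.077 with an SE of 0.31 and a 95% interval of -0.63 to 0.79. The first MYOZ3 probe gave 9.40, 8.39 and 9.12 in LDM and 9.69, 8.74 and 8.94 in PMM. Its log2 fold change was 0.15 with an SE of 0.39, and that of the overlapping probe was 0.047 with an SE of 0.40. Both MYOZ3 probes were highest in replicate 1 and lowest in replicate 2 in both muscles, so the spread between replicate numbers exceeded the difference between muscles.

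**Figure D1:**
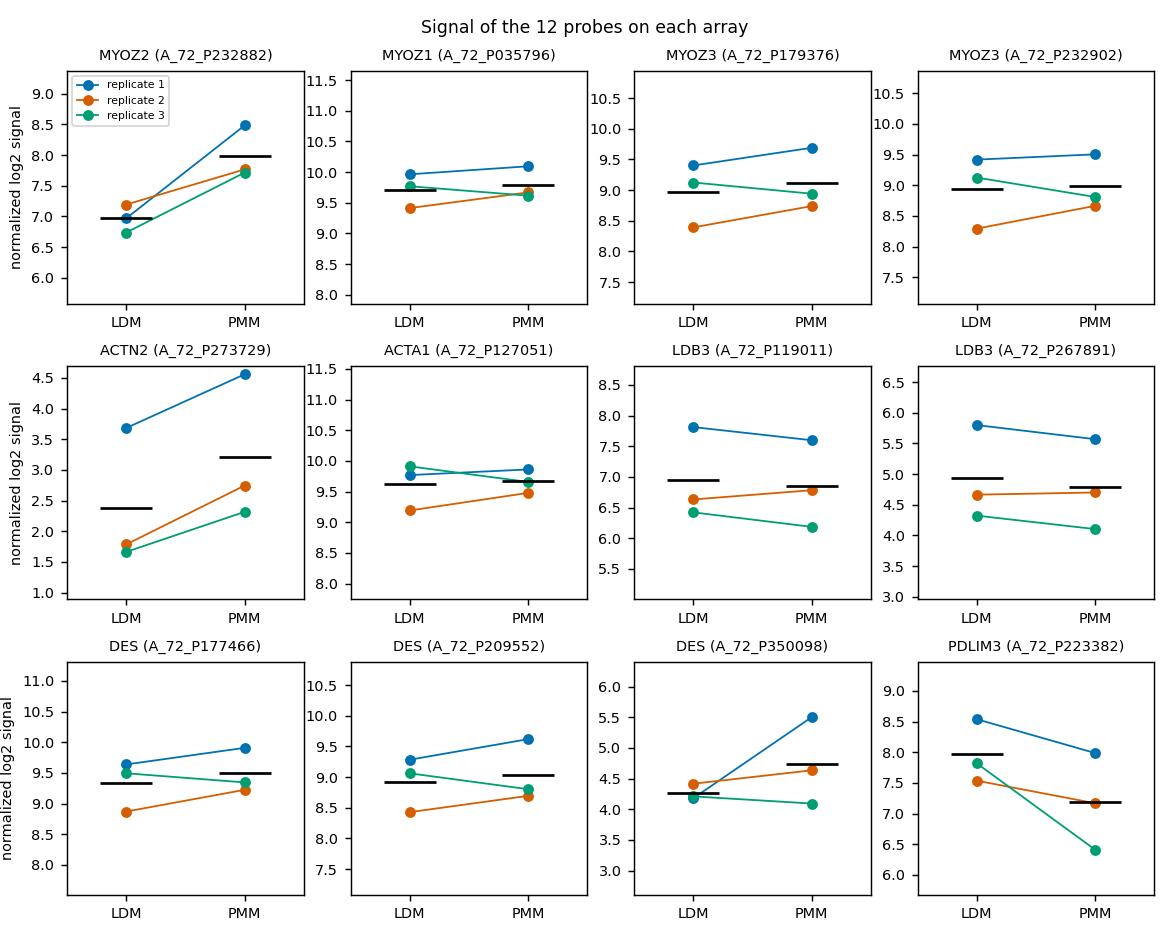
Normalized log2 signal of each of the 12 probes (y axis, the same span in every panel) in LDM and PMM, with each point an array, lines joining arrays of the same replicate number and black bars the group means. Only MYOZ2 has all 3 PMM arrays above all 3 LDM arrays, while ACTN2 shows parallel lines far apart.

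The change of MYOZ2 relative to the other myozenins was also taken within each array, which removes the scaling of the array. The level of such a ratio compares different probes and carries no meaning, and only its change between muscles is read. The log2 ratio of MYOZ2 to MYOZ1 was -2.997, -2.22 and -3.03 in LDM and -1.61, -1.90 and -1.90 in PMM. All 3 PMM ratios lay above all 3 LDM ratios, with a difference of 0.94 (exact permutation test, two-sided, p = 0.1, the smallest p that 3 against 3 arrays allow, and 0.2 after Benjamini-Hochberg adjustment over the 2 ratios). The MYOZ1 spots lay at 76.0% to 92.2% of the saturation value, with saturated pixels on both replicate 1 arrays, and the part of this in the ratio was not tested. The ratio of MYOZ2 to MYOZ3 was -2.43, -1.20 and -2.39 in LDM and -1.21, -0.97 and -1.23 in PMM. The muscles overlapped by a narrow margin, LDM replicate 2 lying above PMM replicates 1 and 3, and the difference of 0.87 had an exact permutation p of 0.3 (0.3 after adjustment). With same-numbered arrays paired, an exact two-sided sign-flip test gave p = 0.25 for each ratio (0.25 after adjustment). That is the smallest p that 3 pairs allow.

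**Figure D2:**
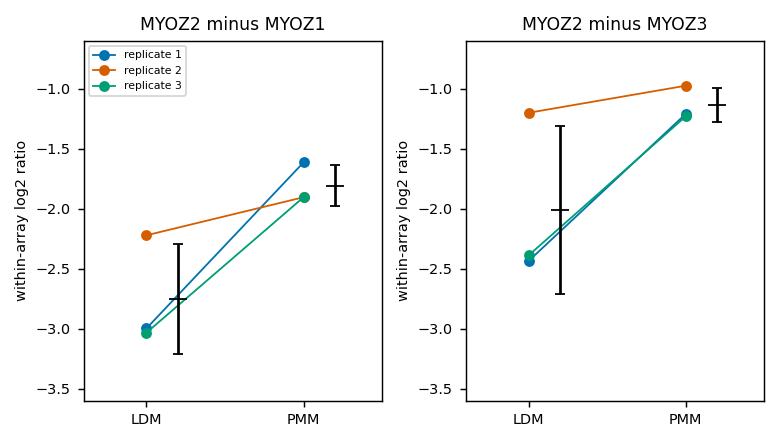
Within-array log2 ratio of MYOZ2 to MYOZ1 (left) and to MYOZ3 (right) on each array, with lines joining arrays of the same replicate number and bars the mean with its SD (n = 3). Every line rises from LDM to PMM, least in replicate 2, where the differences were 0.32 and 0.23. The MYOZ1 spots in the left panel lay at up to 92.2% of saturation.

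ACTN2, the alpha-actinin that cross-links actin at the Z-disc in all fibre types, had the second largest positive difference. Its signal was 3.68, 1.79 and 1.66 in LDM and 4.56, 2.75 and 2.32 in PMM. The muscles overlapped, because both replicate 1 arrays stood well above the rest, by 1.96 in LDM and 2.03 in PMM relative to the mean of replicates 2 and 3. Within each replicate number PMM was higher, by 0.88, 0.96 and 0.65, and the log2 fold change was 0.83 with an SE of 0.71 (a 1.78-fold higher level, limma, adjusted p = 0.999982). Leaving out PMM replicate 1 brought the value down to 0.15, and leaving out LDM replicate 1 brought it to 1.48.

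ACTA1, the actin of the skeletal thin filament, differed little. Its signal was 9.77, 9.19 and 9.91 in LDM and 9.86, 9.48 and 9.66 in PMM, with overlap between the muscles. The log2 fold change was 0.041 with an SE of 0.32 and a 95% interval of -0.69 to 0.77, and its sign turned in 7 of 21 other settings. ACTA1 was close to the limit of the scanner, at 86.4% to 99.9% of the saturation value, with 110 saturated pixels over 3 arrays although no spot was marked as saturated. MYOZ1 stood at 76.0% to 92.2% with 31 saturated pixels on 2 arrays. The MYOZ3 probes reached 81.1% and 79.0% with 0 saturated pixels. The part of this closeness in the small differences of ACTA1 and MYOZ1 was not tested.

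**Figure D3:**
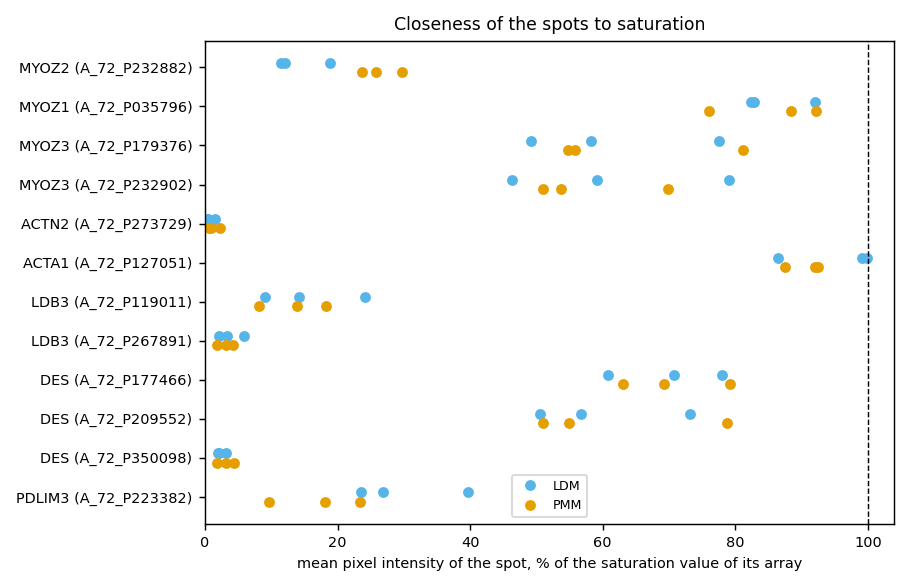
Mean pixel intensity of each spot as a percent of the saturation value of its array (x axis, dashed line at saturation) for the 12 probes, with each point an array coloured by muscle. ACTA1 reaches 99.9% and MYOZ1 92.2%, whereas MYOZ2 stays between 11.5% and 29.7%.

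LDB3 (also called ZASP or Cypher), a PDZ and LIM protein that binds alpha-actinin, was slightly lower in PMM on both member probes. Probe A_72_P119011 gave 7.81, 6.63 and 6.42 in LDM and 7.60, 6.78 and 6.18 in PMM. Replicate 1 was again the highest in both muscles, by 1.29 in LDM and 1.11 in PMM, and the muscles overlapped. The log2 fold changes of the 2 probes were -0.10 (SE 0.49) and -0.14 (SE 0.50), and the pairs had mixed signs. A further probe, A_72_P393178, is described as the bovine form of LDB3 itself but was not taken as a member. It had the opposite sign, with a log2 fold change of 0.17 (SE 0.38).

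DES encodes desmin, the intermediate filament that links neighbouring Z-discs. Probe A_72_P177466 gave 9.64, 8.87 and 9.49 in LDM and 9.91, 9.22 and 9.35 in PMM. Its overlapping partner gave a log2 fold change of 0.11 (SE 0.38) beside its own 0.16 (SE 0.35), with overlap between the muscles in both. The upstream probe A_72_P350098 gave 4.18, 4.42 and 4.21 in LDM and 5.50, 4.64 and 4.09 in PMM. PMM replicate 1 alone stood high, the log2 fold change was 0.47 with an SE of 0.39, and without that array it was 0.096. The pair differences of that probe were 1.32, 0.22 and -0.12, against 0.27, 0.35 and -0.15 for A_72_P177466. The 2 probes therefore disagreed in replicate 1, by 1.05, and the exact permutation p of their difference between muscles was 0.4, where 0.1 was the smallest possible. A_72_P177466 lay at 60.8% to 79.1% of the saturation value and A_72_P350098 at 1.9% to 4.4%, and the part of this was not tested. A further probe, A_72_P104676, is described as bovine desmin and was not taken as a member. It was lower in PMM in every pair, with a log2 fold change of -0.37 (SE 0.53).

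PDLIM3, a LIM protein that binds alpha-actinin-2, was the member with the lowest value in PMM relative to LDM. Its signal was 8.54, 7.54 and 7.82 in LDM and 7.99, 7.17 and 6.41 in PMM. PMM was lower in 3 of 3 pairs, by the largest amount in replicate 3, and the muscles overlapped because PMM replicate 1 exceeded LDM replicates 2 and 3. The log2 fold change was -0.78 with an SE of 0.46 (a 1.71-fold lower level in PMM, limma, adjusted p = 0.999982), and it ran from -1.18 without PMM replicate 1 to -0.39 without PMM replicate 3.

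Over the 12 probes, 0 passed the threshold of 0.05 on the adjusted p, where 8 of 25835 probes (0.031%) did over the array. At an unadjusted p under 0.05 there was 1 of the 12 members, MYOZ2, against 679 of all 25835 probes. The log2 fold change was above 0 in 9 of 12 members against 44.2% of all probes, and in 7 of 10 when the overlapping probes of MYOZ3 and of DES are counted once each. Under normexp it was above 0 in 3 of 12 members against 59.6% of all probes, so the contrast turned round with the background correction. Single arrays also moved it. Without LDM replicate 2 or PMM replicate 1 it was 3 of 12, against 47.1% and 51.4% of all probes. Without LDM replicate 1 or PMM replicate 3 it was 11 of 12, against 45.4% and 51.2%. PMM was higher in 3 of 3 pairs in 2 members against 16.4% of all probes and lower in 3 of 3 pairs in 1 member against 19.4%. The median log2 fold change of the members was 0.096 and that of all probes -0.041.

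**Figure D4:**
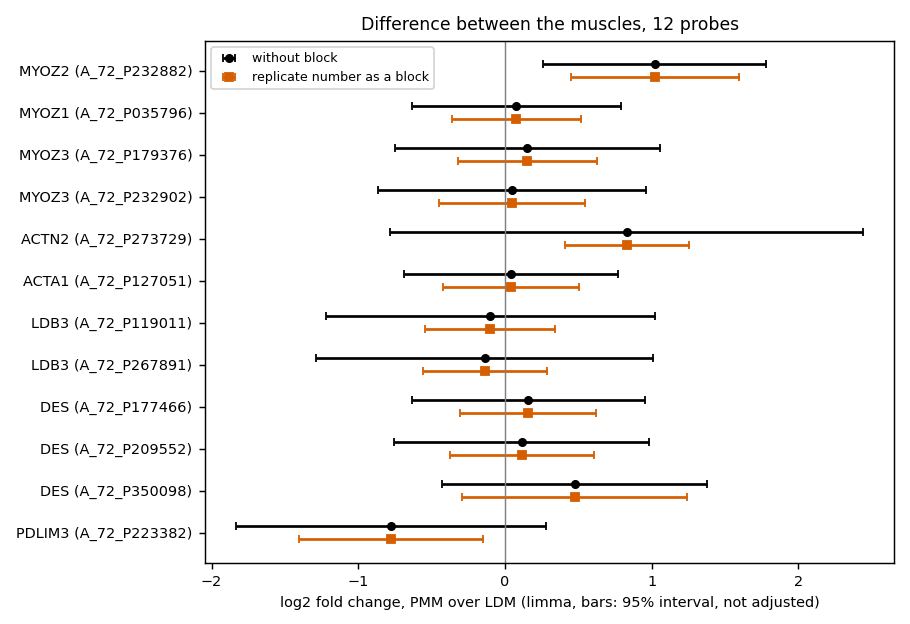
Log2 fold change of PMM over LDM (x axis) for the 12 probes, with 95% intervals from limma not adjusted for the number of probes, without (circles) and with (squares) the replicate number as a block. The intervals of MYOZ2, ACTN2 and PDLIM3 leave 0 with the block, and that of MYOZ2 alone does so without it.

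Arrays of the same replicate number deviated together and were scanned on the same day, so the replicate number was also fitted as a block. The 2 arrays of number 2 shared a slide, as did those of number 3, while those of number 1 lay on different slides. An effect of the slide or of the scan day cannot be told apart from one of the replicate number in numbers 2 and 3, nor one of the scan day in number 1. In number 1 an effect of the slide cannot be told apart from the difference between the muscles. MYOZ2 differed most in that pair, by 1.51 against 0.57 and 0.98 in numbers 2 and 3. ACTN2 differed most in number 2 and PDLIM3 in number 3. The block cut the SE of ACTN2 from 0.71 to 0.17 and that of MYOZ2 from 0.33 to 0.23. In that fit 17 probes were called (0.0658%) and 0 of the 12 members were, the adjusted p being 0.218 for ACTN2, 0.244 for MYOZ2 and 0.369 for PDLIM3. These were the 3 of the 12 members at an unadjusted p under 0.05, against 2857 of all 25835 probes.

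When the block fit was run on the brightest probe of each named gene alone, a setting added after seeing the data, 198 of 2898 genes were called (6.83%). MYOZ2 (limma, adjusted p = 0.00826), ACTN2 (0.0137) and PDLIM3 (0.0481) were among them, MYOZ2 and ACTN2 higher and PDLIM3 lower in PMM, while ACTA1, DES, LDB3, MYOZ1 and MYOZ3 were not. The call of PDLIM3 depended on the spots behind the 75th percentile, since its adjusted p was 0.0623 and 0.058 with the other 2 bases that were run. The fit was made anew on these genes, so its unadjusted p-values are not those of the fit over all probes. None of these calls was made over all probes.

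**Figure D5:**
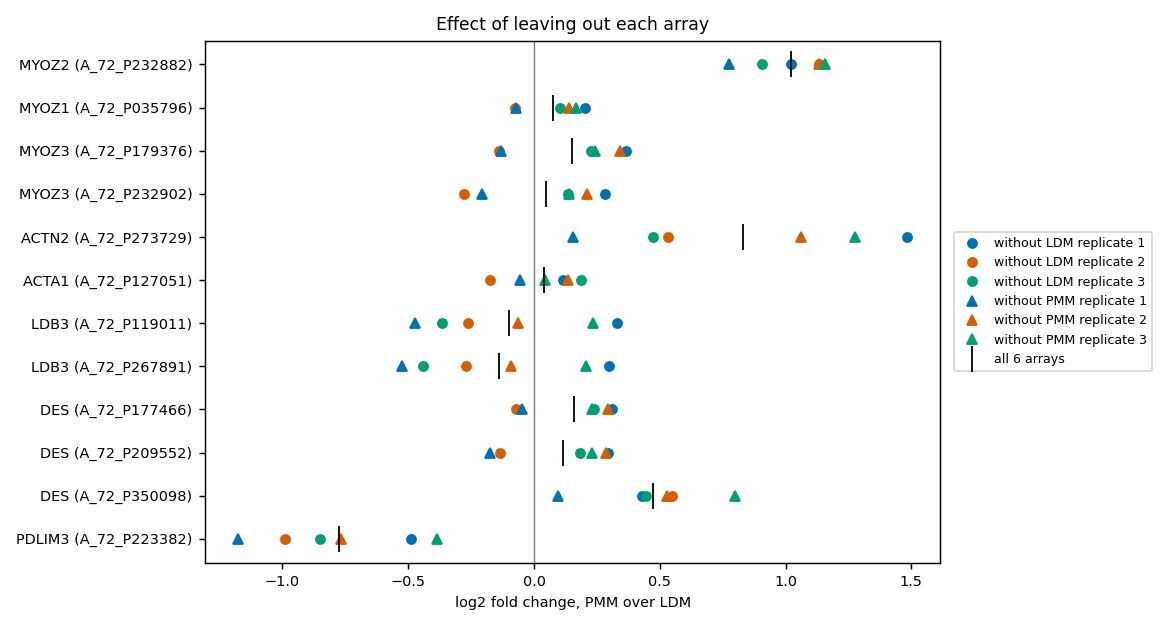
Log2 fold change of PMM over LDM for the 12 probes (x axis) when each array in turn was left out, with black ticks for all 6 arrays. MYOZ2 stays between 0.77 and 1.16, while ACTN2 runs from 0.15 to 1.48 and ACTA1, MYOZ1, MYOZ3, LDB3 and the 2 overlapping DES probes cross 0.

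Other genes of the same structures were few on the array. Of 23 other Z-disc genes 8 were tested, PDLIM3 among them, with 5 above 0, 3 below 0 and a median log2 fold change of 0.23. Beside PDLIM3, MYOT (myotilin, an actin-bundling Z-disc protein) had a log2 fold change of 0.55 and CAPN3, the muscle calpain, -0.50. Of 15 other thin filament genes 5 were tested, with a median of -0.061, while CAPZA2, a subunit of the protein that caps actin at the Z-disc, had -0.42 CFL2, the muscle cofilin that severs actin filaments, 0.36, and TMOD4, a tropomodulin that caps the free end of the filament, -0.24. Of 12 genes of intermediate filaments and membrane anchors 4 were tested, all 4 below 0, with a median of -0.21. These included the sarcoglycan SGCD at -0.32, VCL (vinculin) at -0.21 and DMD (dystrophin) at -0.20. No gene of these lists was called over all probes, without or with the block. Slow fibre markers were above 0 in 7 of 7 genes and in 3 of 3 pairs each, with a median of 0.46, and lay on the same side as MYOZ2. The 10 fast fibre markers were split, with 5 above and 5 below 0 and a median of 0.022. MYH2 at 0.49, TNNT3 at 0.40 and MYH1 at 0.084 were higher in 3 of 3 pairs, and CASQ1 at -0.30 was lower in 3 of 3. Several fast fibre spots were about as bright as those of ACTA1, with mean signals in LDM of 9.68 for MYH1 and 9.76 for TNNC2, beside 9.63 for ACTA1. The part of closeness to saturation in the marker values was not tested. The part of fibre composition in the difference of MYOZ2 was not tested.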

How the data were processed

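The authors deposited linear spot intensities of the Cy3 channel, made with Agilent Feature Extraction 10.5.1.1 per the file headers, already background-subtracted and detrended but not normalized between arrays. Each of the 6 arrays (3 per muscle) holds 43803 spots that are no controls. The methods name the MultiExperiment Viewer for differential expression and give no normalization. Here, controls and outlier spots were dropped, repeated spots were averaged per probe, and each intensity was set on the log2 scale relative to the array's 75th percentile over all its spots that are no controls. That percentile lies within 0.0304% of the one in the scanner's header on every array. Of the 3 bases for the percentile that were run, this one was made the main one after the counts of calls under all 3 had been seen, because it matches the header, and the other 2 are given with the alternatives.

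A probe was tested when it was well above background on all arrays of either muscle, with at least 2 values per muscle. The difference between the muscles was fitted in R 4.3.3 with lmFit and eBayes of limma 3.58.1 (two-sided, Benjamini-Hochberg over all tested probes, threshold 0.05), and ratios of 2 probes by exact permutation. The ratios were also tested by exact sign flips over the pairs of same-numbered arrays. The scripts were tested on simulated data. Same-numbered arrays deviated together (correlations 0.62, 0.70 and 0.56, each over 0.1), which is where the pairing comes from. Numbers also match the day of the scan, and for numbers 2 and 3 the slide, which the arrays of number 1 do not share. Named were all member probes and, in each list of structural genes, up to 3 genes of largest absolute change. Marker genes were named after their values were seen. The members and lists were chosen with earlier results of these data known. The study calls the arrays of a muscle biological replicates, and no label ties an array to an animal. The series' value table, which holds the same intensities, served as an alternative.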

Additional observations from a re-analysis of the deposited data

How the results depend on the processing

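No member was called over all probes in any of the settings run, and the signs of MYOZ2, ACTN2, PDLIM3 and the upstream DES probe held in all 21. The other 8 probes reversed in some. The 8 calls over all probes became 17 with the replicate block, 529 when slides were the block, 1 with normexp and 0 with the percentile taken from probes above background on every array, with no detection filter, with outlier spots kept, with the block and quantile normalization, and over the brightest probe of each gene. They were also 0 with the percentile over spots without outliers and over averaged probes without outliers, both added after seeing the data, while it was 7 with quantile normalization, 9 with median centring and 8 with the value table, so that count depends on details of the scaling. With slides as the block the estimates rest on numbers 2 and 3, since each array of number 1 was alone on its slide. Leaving out 1 array from the main fit gave 0 to 1. With the replicate block, leaving out both arrays of number 1, 2 or 3 gave 802, 1 and 0, and the brightest probe of each gene gave 198, with 3 members called (2 under each of the other percentile bases), all chosen after seeing the data. The cause was not tested.

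Members without overlap were 2 (MYOZ2 and PDLIM3) with quantile normalization, with or without the block, against 6.74% of all probes, and with normexp against 2.43%. They were 1 to 2 when an array was left out, against 9.95% to 17.5% of all probes, since fewer arrays overlap less often. Under normexp the log2 fold change was -0.15 for ACTA1, -0.085 for MYOZ1, -0.026 and -0.14 for MYOZ3 and -0.064 and -0.053 for the overlapping DES probes. Under quantile normalization, with or without the block, it was -0.059 for ACTA1 and -0.024 for MYOZ1, and under median centring -0.016 for ACTA1 and -0.010 for MYOZ3 (A_72_P232902). The block without both arrays of number 2 gave -0.081 for ACTA1, -0.011 for MYOZ1 and -0.12 for that MYOZ3 probe. Leaving out 1 array, ACTA1 ran from -0.17 to 0.19, MYOZ1 from -0.074 to 0.20, MYOZ3 from -0.14 to 0.37 and from -0.28 to 0.28, DES from -0.073 to 0.31 and from -0.18 to 0.29, and LDB3 from -0.47 to 0.33 and from -0.53 to 0.30. Normexp moved the median of all probes from -0.041 to 0.10. The ratio of ACTN2 to ACTN3 was not run, since ACTN3 matched no probe.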
